A study of Mus musculus with 24 samples.

Results

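Of the 49671 genes counted, 7 were followed across all 24 libraries because their products carry, break down or sense the transmitter GABA. They were Slc6a11 (the GABA transporter GAT-3), Abat (GABA transaminase), Aldh5a1 (succinic semialdehyde dehydrogenase), Maob (monoamine oxidase B), Gabbr1 and Gabbr2 (the subunits of the GABA-B receptor) and Gabra2 (the alpha 2 subunit of the GABA-A receptor). They were taken by name, but the choice was made with earlier results of these data known. The mRNA was sequenced in 6 groups of 4 libraries. NSC were neural stem cells derived from the mouse embryonic stem cell line GSC-5003 (C57BL/6N background), and AGES were the astrocytes obtained when those NSC were kept with 20 ng/ml BMP4 for 3 to 5 days. Both groups go back to that 1 cell line, and their libraries came from cultures of different passages. The medium of NSC held the growth factors EGF and FGF, and NSC grew on gelatin. For AGES the medium is given with BMP4 and without EGF and FGF, on poly-ornithine and laminin. BMP4, growth factors and coating therefore cannot be told apart, and "with BMP4" below stands for the whole step from NSC to AGES. The other groups were wild-type C57BL/6J astrocytes captured with magnetic beads against the surface antigen ACSA-2, with 2 mice pooled per isolation. The neonatal groups came from mice aged 4 to 8 days and the adult groups from mice aged 100 to 140 days. Cells frozen straight after isolation are called neoAC direct and AdAC direct, and cells cultured for 7 to 10 days are called neoAC CellC and AdAC CellC. Neonatal and adult brains were dissociated with different kits, and steps to remove debris and red blood cells are given for adult cells only. Neonatal cells came from cerebral tissue without meninges. For direct adult isolation the olfactory bulb and cerebellum were taken out, and whether this was done for the adult cultures is not stated. Age therefore cannot be told apart from dissociation and the tissue taken.

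GABA is the main inhibitory transmitter of the brain, and astrocytes take it up from the space around synapses through transporters of the Slc6 family. Inside the cell GABA transaminase converts it to succinic semialdehyde, which succinic semialdehyde dehydrogenase passes on to the citric acid cycle, while monoamine oxidase B takes part in a route that makes GABA from putrescine. GABA acts on ligand-gated chloride channels (GABA-A receptors, built from subunits of several families) and on the GABA-B receptor, which signals through G proteins and needs both of its subunits.

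Depth ran from 27904126 to 37997368 counts per library, and 3 counts corresponded to 0.0786 to 0.117 CPM (counts relative to the effective library size), below every group mean of the 7 genes. Levels are TMM-scaled CPM when 1 gene is compared across groups, and RPKM (CPM per kilobase of exon) when genes are compared with each other. Marker genes gave the following picture of the cells. The summed level of 10 astrocyte markers was 21786 to 24601 CPM in neoAC direct, 16246 to 16965 in AdAC direct, 7627 to 8838 in neoAC CellC and 55369 to 60311 in AGES, with 1002 to 1521 in AdAC CellC and 2018 to 2545 in NSC. The sum in AGES was mostly Gfap (mean 50482 CPM), and that in NSC mostly Slc1a3 (1499 CPM, against 219 in AdAC CellC). Of the 10 astrocyte markers, 7 had a higher mean in AdAC CellC than in NSC, 6 of them in every library, among them Aldh1l1 (180 against 18.8 CPM), Gja1 (209 against 15.5) and Aqp4 (58.4 against 1.61), while 3, Slc1a3 among them, were lower in every library. The 8 oligodendrocyte markers summed to 27135 to 30206 CPM in AdAC direct and 4433 to 11276 CPM in AdAC CellC, against at most 398 CPM in each library of the other 4 groups. The 7 mural and fibroblast markers reached 1913 to 2372 CPM in AdAC CellC and 357 to 383 CPM in AdAC direct. The 5 ependymal markers reached 1484 to 1892 CPM in neoAC CellC and 133 to 212 CPM in neoAC direct. All 8 oligodendrocyte markers, all 7 mural and fibroblast markers and all 5 ependymal markers were above 3 counts in every library of the groups taken from mice. Replicate 2 of neoAC direct held 292 CPM of 6 endothelial markers, against 71.5 to 114 CPM in the other libraries of that group. The part of these cell types in the values given here was not tested. In bulk RNA, fewer cells of a type and less RNA per cell cannot be told apart.

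The regions just upstream of the start sites are shown for 1 transporter, 1 enzyme of GABA breakdown, 1 GABA-B subunit and 1 GABA-A subunit, to set their base composition side by side. Each is the 250 bases before the RefSeq start (GRCm38.p6), 5′ to 3′ on the gene's strand, with matches to the GC box GGGCGG on either strand in capitals.
Slc6a11, chr6:114130991-114131240, plus strand: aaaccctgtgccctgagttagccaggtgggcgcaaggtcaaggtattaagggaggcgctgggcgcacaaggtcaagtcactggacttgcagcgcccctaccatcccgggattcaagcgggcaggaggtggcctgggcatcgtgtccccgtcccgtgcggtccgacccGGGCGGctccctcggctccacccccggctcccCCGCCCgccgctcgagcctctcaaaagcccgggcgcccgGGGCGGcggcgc
Aldh5a1, chr13:24937662-24937911, minus strand: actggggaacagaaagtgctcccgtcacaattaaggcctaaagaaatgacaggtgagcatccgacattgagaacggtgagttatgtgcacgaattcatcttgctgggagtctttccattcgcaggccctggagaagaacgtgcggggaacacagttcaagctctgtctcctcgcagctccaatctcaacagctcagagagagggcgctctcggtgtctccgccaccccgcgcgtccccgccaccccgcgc
Gabbr1, chr17:37045716-37045965, plus strand: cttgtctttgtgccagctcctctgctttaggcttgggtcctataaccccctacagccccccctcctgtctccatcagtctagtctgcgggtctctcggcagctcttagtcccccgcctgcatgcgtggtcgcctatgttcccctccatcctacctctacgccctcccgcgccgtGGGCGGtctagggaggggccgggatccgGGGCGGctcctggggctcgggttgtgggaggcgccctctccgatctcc
Gabra2, chr5:71095850-71096099, minus strand: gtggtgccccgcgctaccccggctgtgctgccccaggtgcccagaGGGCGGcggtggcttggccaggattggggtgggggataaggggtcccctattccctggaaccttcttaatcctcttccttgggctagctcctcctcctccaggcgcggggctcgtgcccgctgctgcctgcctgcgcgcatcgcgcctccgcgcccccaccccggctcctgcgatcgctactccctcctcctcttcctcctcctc
The Slc6a11 sequence held 25 CpG dinucleotides, the Aldh5a1 sequence 17, the Gabbr1 sequence 16 and the Gabra2 sequence 18, against a median of 6 over 32851 RefSeq promoters. The Aldh5a1 sequence held no GC box, which was present in 32.7% of all upstream windows of this length. The letters TATAAA, the cAMP response element TGACGTCA, the STAT motif TTCNNNGAA and the palindromic NFI motif were searched on both strands of these windows extended by 50 bases into the gene and had no match in the windows of the 5 members listed in RefSeq here (the 4 above and Gabbr2), while 13.6%, 1.79%, 8.3% and 0.0365% of all windows held them.

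Slc6a11 (GRCm38 chr6:114131241-114249952, plus strand) had the widest range of levels of the 7 genes. Its level was 4233, 4818, 4371 and 3559 CPM in neoAC direct and 2050, 2244, 1909 and 1771 CPM in AdAC direct. After culture it was 213, 168, 208 and 167 CPM in neoAC CellC and 8.56, 9.44, 9.45 and 14.7 CPM in AdAC CellC. The NSC libraries had 3.55, 3.79, 2.67 and 3.24 CPM and the AGES libraries 2.03, 3.04, 3.20 and 4.67 CPM. The libraries of the directly isolated, cultured neonatal and cultured adult groups did not overlap with each other, whereas NSC and AGES overlapped. In culture Slc6a11 fell by 7.56 ± 0.22 on the log2 scale (SE, 189-fold, edgeR adjusted p = 9.72e-20) in adult and fell by 4.49 ± 0.18 (22.5-fold, edgeR adjusted p = 2.17e-16) in neonatal cells. It was 1.09 ± 0.16 higher on the log2 scale in neoAC direct than in AdAC direct (edgeR adjusted p = 1.53e-06). The mean levels of AGES and NSC did not differ detectably (log2 fold change -0.03, 95% interval -0.45 to 0.39, edgeR adjusted p = 0.942), and the sign of that value changed with the processing. AGES stood 58.0-fold below neoAC CellC (log2 fold change -5.86 ± 0.21) and 3.23-fold below AdAC CellC (-1.69 ± 0.19, edgeR adjusted p = 1.28e-08).

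**Figure D1:**
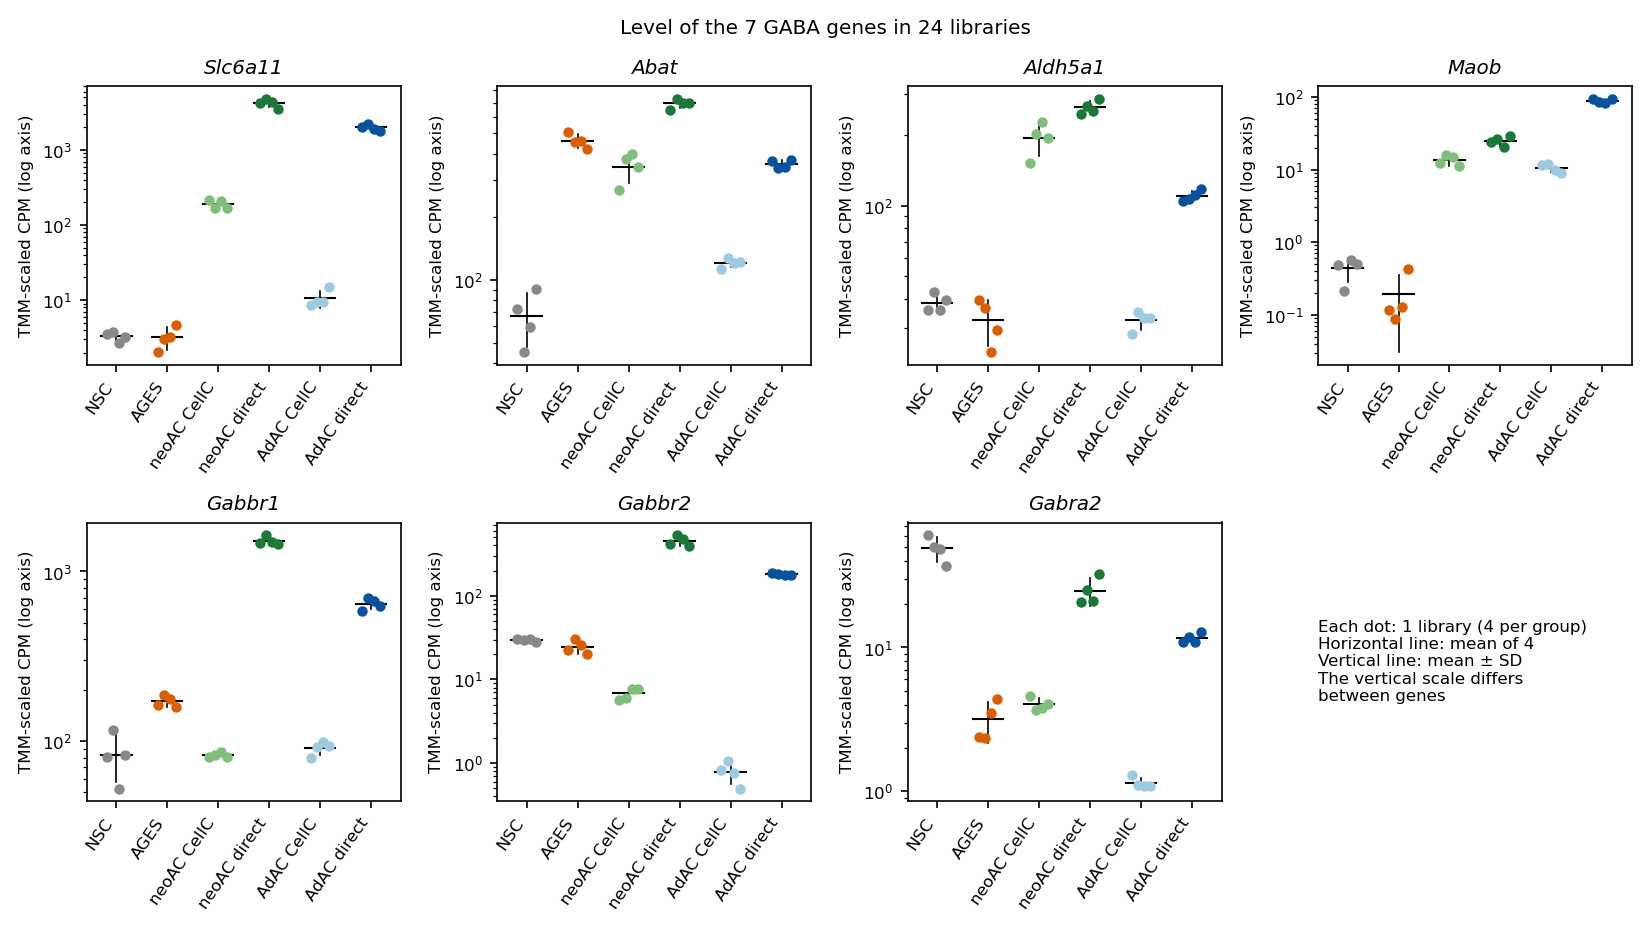
TMM-scaled CPM of the 7 genes (vertical axis, logarithmic, with its own range for each gene) in the 6 groups (horizontal axis), 1 dot per library, with the mean and SD of 4 libraries as lines. Slc6a11 spans 2.03 to 4818 CPM, Abat is above 400 CPM in all AGES libraries, and Gabra2 is highest in NSC.

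Abat (chr16:8513429-8621568, plus strand), which removes the amino group of GABA, was the member with the highest level per length in AGES, with a mean of 59.3 RPKM. Its level was 505, 456, 457 and 419 CPM in AGES and 72.7, 45.3, 59.5 and 90.9 CPM in NSC, groups that lay far apart. It rose with BMP4 by 2.78 ± 0.15 on the log2 scale (6.85-fold, edgeR adjusted p = 6.79e-15). The directly isolated cells had 646, 731, 697 and 700 CPM at the neonatal and 369, 341, 346 and 372 CPM at the adult age. The cultured cells had 268, 376, 397 and 344 CPM at the neonatal and 113, 127, 120 and 122 CPM at the adult age. Abat was 2.96-fold lower in cultured than in direct adult cells (log2 fold change -1.57 ± 0.14). In neonatal cells it was 2.00-fold lower after culture (-1.001 ± 0.14), and both changes were smaller than those of Slc6a11. AGES were 3.81-fold above AdAC CellC (1.93 ± 0.14, edgeR adjusted p = 3.31e-12) and 1.33-fold above neoAC CellC (0.41 ± 0.14, edgeR adjusted p = 0.00919). The latter call was lost when libraries were scaled by their size alone (0.10, edgeR adjusted p = 0.525) or only genes with 10 counts in every library were kept (0.24, edgeR adjusted p = 0.124). AdAC direct and neoAC CellC did not differ detectably in Abat (edgeR adjusted p = 0.785).

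Aldh5a1 (chr13:24907579-24937661, minus strand) is the next enzyme of the pathway. It had 247, 267, 254 and 286 CPM in neoAC direct and 152, 202, 227 and 194 CPM in neoAC CellC. It had 105, 107, 111 and 117 CPM in AdAC direct and 28.2, 35.3, 33.2 and 33.1 CPM in AdAC CellC. The NSC values of 35.7, 42.8, 35.9 and 39.3 CPM and the AGES values of 39.7, 36.6, 23.7 and 29.5 CPM overlapped. In adult culture it fell by 1.76 ± 0.13 on the log2 scale (edgeR adjusted p = 2.52e-12) and in neonatal culture by 0.44 ± 0.12 (edgeR adjusted p = 0.00229). The neonatal call was lost with scaling by library size alone (-0.22, edgeR adjusted p = 0.135). The difference between AGES and NSC did not pass the test (-0.25, 95% interval -0.50 to 0.01, edgeR adjusted p = 0.0836), but passed it without AGES replicate 1 (-0.36, edgeR adjusted p = 0.0158) or replicate 2 (-0.31, edgeR adjusted p = 0.0453). AGES and AdAC CellC did not differ detectably (95% interval of the log2 fold change -0.26 to 0.25), and AGES were 5.99-fold below neoAC CellC (-2.58 ± 0.13). Aldh5a1 shares 796 exonic bases with 4932702P03Rik and 203 with 9330162012Rik on the opposite strand. The first of these did not exceed 0.106 CPM and the other 5.54 CPM in any library, and since the strand setting of the counting is not stated, reads from such overlaps cannot be assigned with certainty.

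Maob (chrX:16709282-16817366, minus strand) was the only member higher in adult than in neonatal direct cells. AdAC direct had 94.0, 84.8, 81.3 and 93.3 CPM and neoAC direct 23.7, 26.1, 20.2 and 29.0 CPM, a difference of 3.57-fold (neonatal over adult -1.84 ± 0.15 on the log2 scale, edgeR adjusted p = 9.05e-11). The cultured groups overlapped, with 11.5, 12.1, 9.80 and 9.09 CPM in AdAC CellC and 12.3, 16.03, 14.7 and 11.1 CPM in neoAC CellC. Maob fell by 3.05 ± 0.16 in adult culture (edgeR adjusted p = 8.87e-15) and fell by 0.87 ± 0.16 in neonatal culture (edgeR adjusted p = 2.47e-05). It was close to the limit of detection in the stem cell line, with 0.49, 0.21, 0.57 and 0.50 CPM in NSC and 0.12, 0.087, 0.13 and 0.43 CPM in AGES, where the libraries held 3 to 13 counts. Here AGES and NSC overlapped, and the lower value in AGES (-1.20 ± 0.41, edgeR adjusted p = 0.0121) was no longer called without AGES replicate 2 (-0.93, edgeR adjusted p = 0.0591) or in a fit of the compared groups alone (-1.11, edgeR adjusted p = 0.0730), while without AGES replicate 4 it was -1.97. AGES had 55.1-fold less Maob than AdAC CellC (-5.78 ± 0.27) and 70.2-fold less than neoAC CellC (-6.13 ± 0.26), log2 fold changes that were -6.55 and -6.90 without AGES replicate 4. The cultured groups did not differ by the main test (0.35 ± 0.16, edgeR adjusted p = 0.0558), which other settings changed.

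Gabbr1 (chr17:37045966-37075067, plus strand), the subunit that binds GABA, had 1478, 1637, 1486 and 1447 CPM in neoAC direct and 589, 695, 669 and 629 CPM in AdAC direct. In the cultured cells of both ages it came to a like level, 81.0, 83.2, 86.8 and 80.8 CPM in neoAC CellC and 79.9, 91.8, 98.9 and 94.1 CPM in AdAC CellC. The cultured groups overlapped and did not differ detectably (log2 fold change -0.14, 95% interval -0.42 to 0.14). Gabbr1 fell by 4.19 ± 0.15 in neonatal culture (18.2-fold, edgeR adjusted p = 2.77e-17) and fell by 2.82 ± 0.15 in adult culture (7.08-fold, edgeR adjusted p = 3.95e-15), and it was the only one of the 7 with the larger fall in neonatal cells. NSC had 81.1, 116, 52.5 and 82.5 CPM and AGES 163, 187, 177 and 158 CPM, without overlap. Gabbr1 rose with BMP4 by 1.04 ± 0.14 (2.06-fold, edgeR adjusted p = 2.32e-07), and AGES were 1.88-fold above AdAC CellC and 2.07-fold above neoAC CellC.

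Gabbr2 (chr4:46662305-46991873, minus strand), the subunit that couples the receptor to G proteins, had 413, 530, 477 and 397 CPM in neoAC direct and 185, 180, 179 and 176 CPM in AdAC direct. It had 5.68, 6.08, 7.70 and 7.78 CPM in neoAC CellC and 0.83, 1.05, 0.77 and 0.50 CPM in AdAC CellC, where the libraries held 16 to 36 counts. The log2 fold changes of -7.83 ± 0.17 in adult culture (227-fold lower, edgeR adjusted p = 1.97e-21) and of -6.06 ± 0.15 in neonatal culture (66.6-fold, edgeR adjusted p = 6.26e-20) were the largest of the 7 genes at each age. NSC had 30.4, 29.8, 30.4 and 28.2 CPM and AGES 22.6, 30.4, 25.7 and 20.3 CPM, above both cultured groups in every library. AGES were 31.3-fold above AdAC CellC (4.97 ± 0.17) and 3.63-fold above neoAC CellC (1.86 ± 0.13). NSC and AGES overlapped, and their difference did not pass the main test (-0.26 ± 0.12, edgeR adjusted p = 0.0591), but passed it without AGES replicate 2 (-0.38, edgeR adjusted p = 0.00832).

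Gabra2 (chr5:70957597-71095849, minus strand) was the only member with its highest level in NSC, 60.3, 49.6, 48.3 and 36.9 CPM. In AGES it was 2.38, 2.35, 3.49 and 4.41 CPM, a fall of 3.95 ± 0.19 on the log2 scale with BMP4 (15.4-fold, edgeR adjusted p = 7.78e-16). It was 20.6, 25.3, 21.1 and 32.4 CPM in neoAC direct and 10.9, 11.7, 10.99 and 12.7 CPM in AdAC direct. It was 4.58, 3.69, 3.80 and 4.04 CPM in neoAC CellC and 1.29, 1.11, 1.09 and 1.09 CPM in AdAC CellC. Direct and cultured libraries did not overlap at either age, with log2 fold changes of -3.34 ± 0.20 in adult and -2.63 ± 0.18 in neonatal cells (edgeR adjusted p = 7.90e-14 and 1.60e-12). AGES were 2.76-fold above AdAC CellC (1.47 ± 0.21, edgeR adjusted p = 8.02e-07) and overlapped with neoAC CellC (-0.35 ± 0.19, edgeR adjusted p = 0.0928).

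Across the 7 comparisons, 42 of 49 tests of the members passed. In adult culture all 7 were lower and without overlap of libraries, with a median log2 fold change of -3.05 against 0 over all tested genes. There 78.0% of all tested genes were called, 38.8% higher and 39.2% lower, and 76.3% did not overlap. In neonatal culture all 7 were lower and without overlap, with a median of -2.63 against 0.04. There 65.7% of genes were called, 34.4% higher and 31.3% lower, and 58.0% did not overlap. The change in culture differed between the ages for each of the 7 by the interaction test, a call that 68.6% of all genes also received. The fall was larger in adult cells for 6 (33.2% of genes called in this direction), with differences of the log2 fold changes, adult minus neonatal, of -3.07 ± 0.24 for Slc6a11 (edgeR adjusted p = 2.14e-11), -2.18 ± 0.22 for Maob, -1.77 ± 0.21 for Gabbr2, -1.32 ± 0.17 for Aldh5a1, -0.71 ± 0.26 for Gabra2 (edgeR adjusted p = 0.0188) and -0.57 ± 0.19 for Abat (edgeR adjusted p = 0.0117). Gabbr1 went the other way with 1.37 ± 0.19 (edgeR adjusted p = 8.71e-07), as 35.4% of genes did. Beside the adult change, the astrocyte sum was lower in AdAC CellC (1002 to 1521 against 16246 to 16965 CPM in AdAC direct). Of its markers only Gfap did not have a lower mean in AdAC CellC (189 against 167 CPM, with overlapping libraries). The mural and fibroblast sum was higher there, and the oligodendrocyte sum, the ependymal sum (231 to 334 against 1176 to 1285 CPM in AdAC direct), the sum of 6 markers of oligodendrocyte precursors (356 to 592 against 1075 to 1298) and the endothelial sum (46.4 to 61.9 against 75.0 to 80.5) were lower. The 8 microglia markers (32.2 to 52.4 against 20.1 to 31.8 CPM), the 12 neuron markers (399 to 458 against 268 to 303) and the 5 proliferation markers (669 to 827 against 9.79 to 12.1) were higher in sum. The neuron markers did not move together. Tubb3 (144 against 40.1 CPM) and Stmn2 (59.1 against 2.64) had higher means in AdAC CellC, while Map2 (177 against 226) and Snap25 (1.18 against 4.47) had lower ones. Beside the neonatal change, the astrocyte sum was lower in neoAC CellC (7627 to 8838 against 21786 to 24601 CPM in neoAC direct). Within it, Gfap had a higher mean in neoAC CellC (2794 against 1721 CPM), as had S100b with overlapping libraries (88.5 against 78.9), while the other astrocyte markers had lower means. The mural and fibroblast sum had a median of 876 CPM in neoAC CellC against 500 CPM in neoAC direct, with overlapping libraries. The ependymal sum and the proliferation sum (669 to 884 against 244 to 405 CPM in neoAC direct) were higher in neoAC CellC. The endothelial sum (4.18 to 6.81 against 71.5 to 292 CPM) and the microglia sum (median 7.65 against 23.3) were lower there, and the precursor sum had a median of 560 against 1079 CPM, with overlapping libraries.

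**Figure D2:**
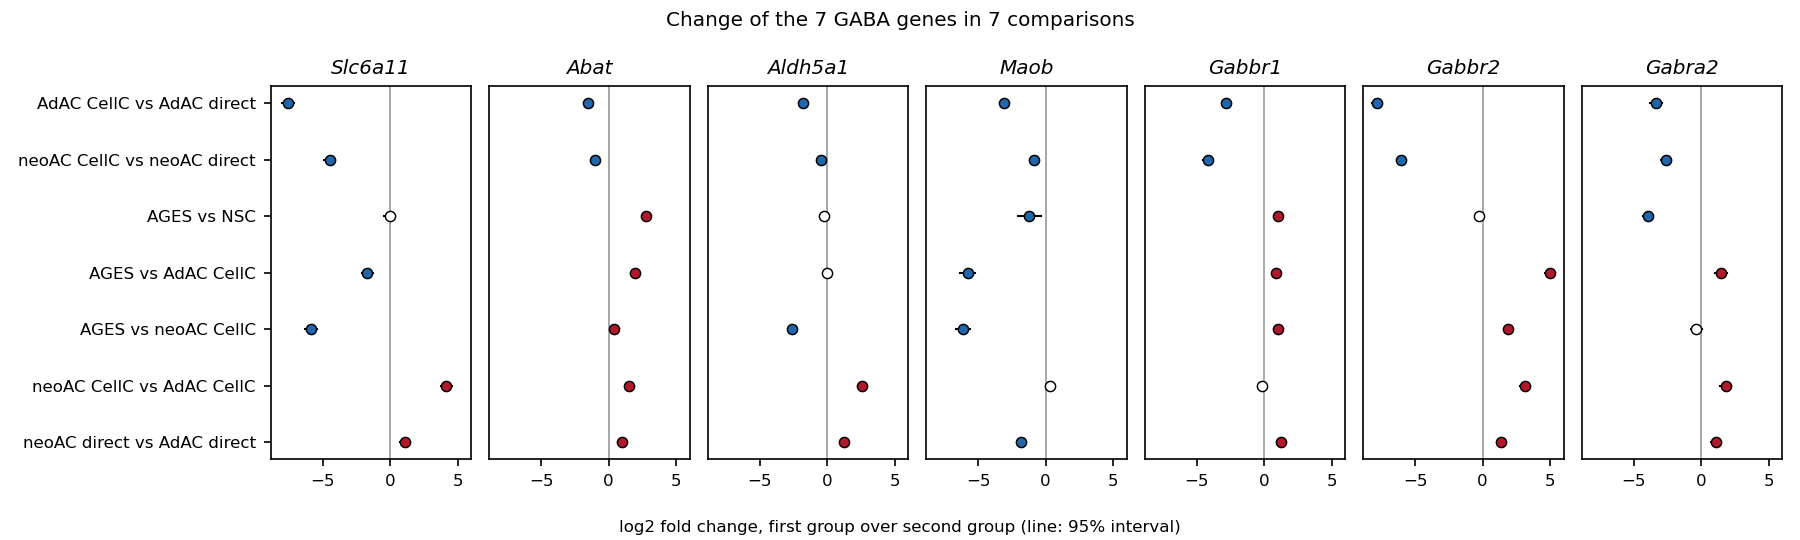
Log2 fold change of the first over the second group (horizontal axis) in 7 comparisons (vertical axis) for each gene, with 95% intervals as lines. Red and blue dots passed the test as higher and lower and white dots did not pass, and all 14 dots of the comparisons of cultured with direct cells are blue.

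In AGES 2 members were higher and 2 lower than in NSC, and 3 did not overlap, where 65.7% of genes were called, 31.7% higher and 34.0% lower, and 58.3% did not overlap. Against AdAC CellC, AGES had 4 members higher and 2 lower, with 6 not overlapping. There 76.2% of genes were called, 31.0% higher and 45.2% lower, 73.1% did not overlap, and the median over all genes was -0.23. Against neoAC CellC, AGES had 3 members higher and 3 lower, with 6 not overlapping, where 74.6% of genes were called, 34.1% higher and 40.5% lower, and 69.6% did not overlap. These comparisons share the AGES libraries. Among cultured cells 5 members were higher in neoAC CellC and 0 lower (edgeR, 0 also with DESeq2), and 5 did not overlap. There 63.8% of genes were called, 28.5% higher and 35.2% lower, and 62.2% did not overlap. Among direct cells 6 members were higher in neoAC direct and 1 lower, and all 7 did not overlap, where 71.4% of genes were called, 35.0% higher and 36.4% lower, and 64.9% did not overlap. Besides those given above, the groups next to each other in the order of a member's levels that did not differ detectably were AdAC CellC and NSC for Aldh5a1 (edgeR adjusted p = 0.0764) and for Gabbr1 (edgeR adjusted p = 0.370) and NSC and neoAC CellC for Gabbr1 (edgeR adjusted p = 0.994). For Aldh5a1, however, the libraries of AdAC CellC and NSC did not overlap, and the difference was called in 1 of 7 alternative settings.

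Per length, the order of the members differed between groups. In neoAC direct Slc6a11 led with 841 RPKM, followed by Gabbr1 with 195, Abat with 89.5, Gabbr2 with 67.9 and Aldh5a1 with 46.7 RPKM. In AdAC direct Slc6a11 led with 395 RPKM and Maob, with 31.7 RPKM, stood above Gabbr2 and Aldh5a1. Abat had the highest mean in AGES (59.3 RPKM) and AdAC CellC (15.5), where it led in all 4 libraries, and in neoAC CellC (44.7, against 37.4 for Slc6a11), where it led in 3 of 4. In NSC the mean of Gabbr1 was 10.7 RPKM and that of Abat 8.66, each led in 2 libraries, and without replicate 2 the order turned (9.28 and 9.60). The ratio of Gabbr1 to Gabbr2 within a library had a median of 2.88 in neoAC direct and 3.15 in AdAC direct. It was 96.8 (75.4 to 163) in AdAC CellC, 10.7 in neoAC CellC, 6.09 in AGES and, as the lowest median, 2.41 in NSC. The NSC libraries ran from 1.49 to 3.35 and spanned those of neoAC direct (2.66 to 3.14) and AdAC direct (2.74 to 3.32). The libraries of AdAC CellC thus lay apart from every other group in this ratio. Maob exceeded Maoa, its sister enzyme, only in AdAC direct (2.14), and was at most 0.392 of it in each library of the other groups. Abat exceeded Aldh5a1 9.07-fold to 14.1-fold in AGES, against medians of 1.29 to 2.66 in the other groups.

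**Figure D3:**
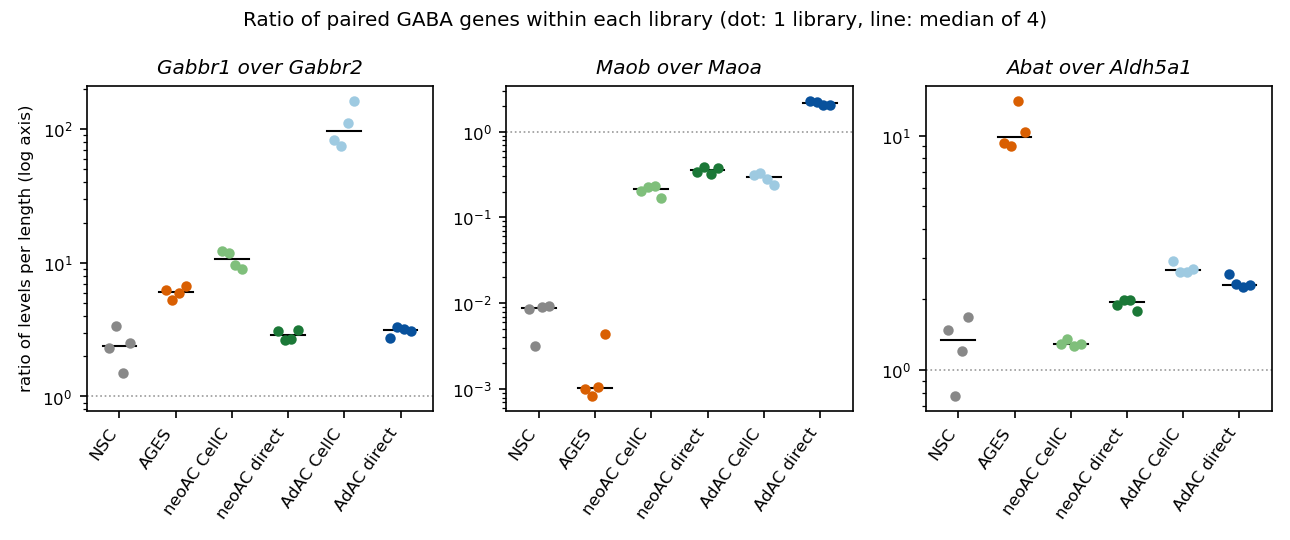
Ratio of the levels per length of 2 genes within each library (vertical axes, logarithmic) for 3 pairs in the 6 groups, with the median of 4 as a line. Gabbr1 over Gabbr2 is 75.4 to 163 in AdAC CellC and at most 12.3 in each library of the other groups.

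Counts of the pathway lists in culture stand beside 39.2% of all genes lower and 38.8% higher in adult, and 31.3% lower and 34.4% higher in neonatal cells. Among the other transporters, Slc6a6, the taurine transporter, rose in adult culture by 0.62 ± 0.28 (edgeR adjusted p = 0.0459) and fell in neonatal culture (-1.73 ± 0.29). Slc6a13 (GAT-2) fell in adult culture (-3.52 ± 0.30). Of the 4 transporters tested, 3 were lower and 1 higher in culture at each age.

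Among 18 genes of GABA synthesis and breakdown, 10 were lower and 4 higher in adult culture (median -0.89), and 7 were lower and 7 higher in neonatal culture (median 0.04), where the counts in each direction were near the shares over all genes. Glul, glutamine synthetase, had log2 fold changes of -3.14 ± 0.13 in adult and -3.13 ± 0.13 in neonatal culture, values that did not differ by the interaction test (edgeR adjusted p = 0.953). Odc1, which makes putrescine, rose by 1.90 ± 0.14 and 1.98 ± 0.14. Aldh1a1, an aldehyde dehydrogenase that can make GABA from putrescine, rose by 4.17 ± 0.22 in neonatal culture and by 4.51 ± 0.23 with BMP4 and had a log2 fold change of 0.03 ± 0.20 in adult culture (edgeR adjusted p = 0.911). Glud1, glutamate dehydrogenase, fell at both ages (-1.32 ± 0.08 and -2.27 ± 0.08) and rose with BMP4 by 1.43 ± 0.08. Of the enzymes that make GABA from glutamate, Gad1 had its highest means in NSC (18.2 CPM) and AGES (8.83), against 0.701 to 6.45 CPM in the other groups, and fell by 1.05 ± 0.26 with BMP4 with overlapping libraries (edgeR adjusted p = 0.00106). Gad2 had 0 counts in every NSC and AGES library, 0.683 to 0.887 CPM in AdAC direct and 3.25 to 6.58 CPM in the other 3 groups.

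Of 17 further GABA-A subunits, 14 were tested. In adult culture 9 were lower and 5 higher, and in neonatal culture 6 were lower and 5 higher. AGES had 11 lower than neoAC CellC and 3 that did not pass the edgeR test (40.5% of all genes were lower), with a median log2 fold change of -5.69 against -0.07 over all genes. Gabrb1 had 210 CPM in AdAC direct, 6.57 in AdAC CellC, 90.5 in neoAC direct and 137 in neoAC CellC, and 0.284 in AGES. It had a log2 fold change of -4.9997 ± 0.18 in adult culture, while the neonatal value was 0.60 ± 0.15 higher with overlapping libraries (edgeR adjusted p = 0.000990). Gabrg1 fell in culture in adult (-6.03 ± 0.26) and neonatal cells (-2.47 ± 0.20). Gabra5 rose with BMP4 by 5.38 ± 0.57, but the AGES libraries spread from 1.55 to 15.97 CPM. Gabrb2 and Gabre had 0 counts in every NSC and AGES library.

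**Figure D4:**
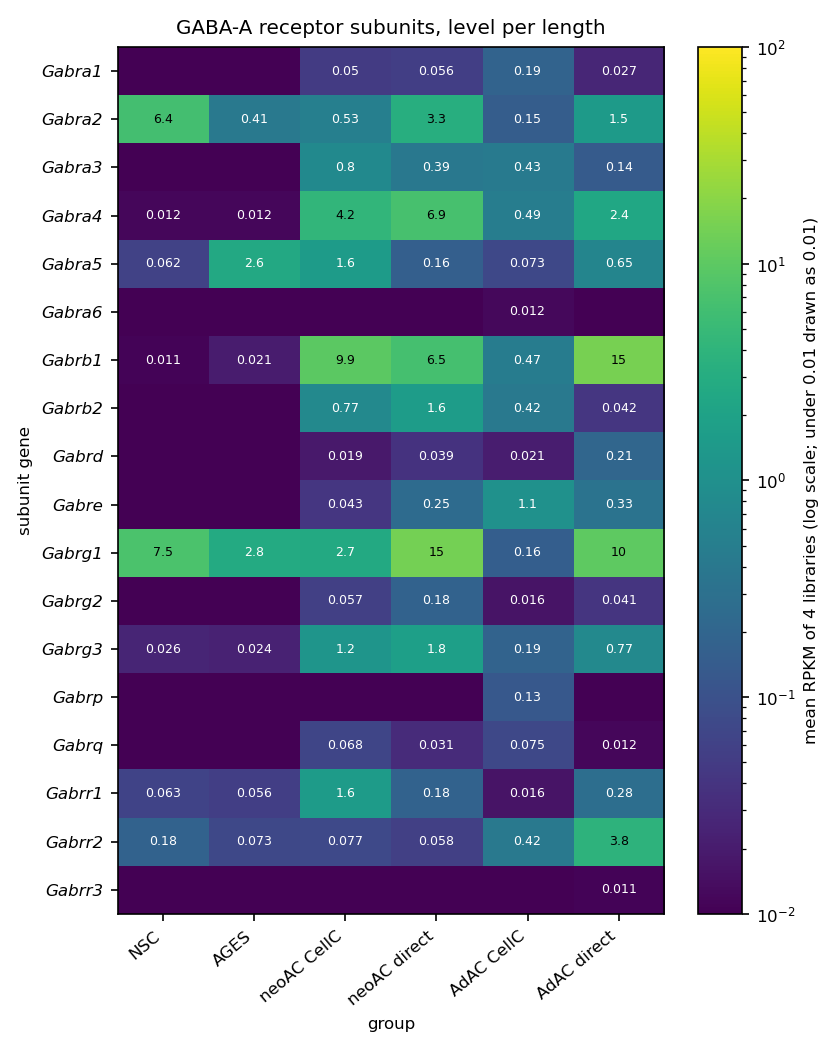
Mean RPKM of 4 libraries (colour, logarithmic, under 0.01 drawn as 0.01) for Gabra2 and 17 further GABA-A subunit genes (rows) in the 6 groups (columns). Of the genes shown, Gabrb1 leads in AdAC direct with 15.2 RPKM and Gabrg1 in neoAC direct with 14.8 RPKM.

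Among 14 partners and effectors of the GABA-B receptor, 7 were lower and 4 higher in adult culture and 9 lower and 2 higher in neonatal culture. Gnao1, a G protein subunit through which the receptor acts, had log2 fold changes of -2.39 ± 0.15 and -0.87 ± 0.14, and Gnai2 rose by 0.65 ± 0.08 in adult and fell by 0.57 ± 0.08 in neonatal culture. Kcnj6, a potassium channel opened by G proteins, was at 11.6 CPM in neoAC direct and at most 0.478 CPM in each library of the other groups. Of 15 genes of GABA-A scaffolding and trafficking, 9 were lower and 4 higher in adult culture and 7 lower and 2 higher in neonatal culture, and 8 were higher and 5 lower in AGES than in NSC (31.7% and 34.0% of all genes), among them Gabarapl1 (2.26 ± 0.07, edgeR adjusted p = 1.93e-19). Of 7 chloride transporters and channels, Slc12a2, which loads cells with chloride, fell by 2.43 ± 0.13 with BMP4 and fell by 1.56 ± 0.13 in adult culture, and 1 of the 7 was higher and 1 lower in AGES than in NSC.

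As a description over 24 libraries, which share their groups, the genes most like each member were found by Pearson's r of log2 CPM among 12576 genes. They were Slc30a10 (0.993), Pdzph1 and Sypl2 for Slc6a11, Gdpd2 (0.969), Ptprn2 and Lrrc75b for Abat, and Atp7b (0.976), Echs1 and Frem2 for Aldh5a1. They were Pamr1 (0.993), Csmd3 and Mknk1 for Maob, Hes5 (0.990), Fjx1 and Rasa2 for Gabbr1, E130307A14Rik (0.987), Chst10 and Cspg5 for Gabbr2, and Pantr1 (0.952), Igsf21 and Pdp2 for Gabra2. Among the members, Slc6a11 and Aldh5a1 were the closest pair (0.886), and Gabbr1 and Gabbr2 had 0.835.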

How the data were processed

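Poly(A) RNA of 24 libraries was sequenced. The authors aligned the reads with STAR 2.7.3a to GRCm38 and counted reads on exons with featureCounts, and deposited raw counts per gene. The strand setting of the counting is not given in the sources used here. Ensembl IDs were matched to Gencode names for 49412 of 49671 genes (99.5%). Groups were taken from the sample labels. The libraries of a group differed by more than sampling noise. The p-values rest on the spread between libraries within groups, estimated over all 24 libraries together and not from the 4 libraries of each group alone. Genes were filtered with filterByExpr (19691 tested), scaled by TMM and tested in 1 quasi-likelihood fit of 6 groups in edgeR 4.0.16 (R 4.3.3), with Benjamini-Hochberg adjustment over all tested genes and a threshold of 0.05. The SE is the log2 fold change divided by the root of F. Intervals cover 95%. DESeq2 1.42.0, other scalings and filters, leaving out each library, and a replicate block were alternatives. A cut-off that also asked for an absolute log2 fold change over 1 was another. In data simulated for AGES against NSC (15121 genes), edgeR recovered 26 of 67 genes changed by 0.5, 59 of 67 by 1 and 66 of 66 by 2 on the log2 scale, with 6 false calls. DESeq2 made 27 false calls there. Only these few genes were changed in the simulation, whereas 65.7% of genes were called between AGES and NSC in the real data. The rates of the simulation therefore need not hold for these data. Same-numbered libraries deviated together in 1 of 28 pairs only (correlation over 0.1), so numbers were not used to pair libraries. Named list genes were the 3 with the highest mean CPM and the 2 with the largest called change per comparison (with 1 CPM or more in either group) and those described in the text were picked from them after their values were seen, while the closing section gives every one whose change in culture differed between ages. The members and gene lists were chosen with earlier results of these data known. A comparison of protein sequences was not run, and 2 list genes are not reported here and are in no count of a list.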

Additional observations from a re-analysis of the deposited data

Results flagged for a closer look

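Of 42 sets of 4 libraries (7 genes in 6 groups), 3 held a library whose gap to its nearest neighbour was above Dixon's 95% critical value, where chance flags about 1 in 20. They were Slc6a11 in AdAC CellC replicate 4 at 14.7 CPM (others 8.56 to 9.45), Maob in AGES replicate 4 at 0.43 CPM (others 0.087 to 0.13) and Gabra2 in AdAC CellC replicate 1 at 1.29 CPM (others 1.09 to 1.11).

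The log2 fold change in culture differed between adult and neonatal cells (adult minus neonatal, edgeR interaction test) for the 7 members, with -3.07 for Slc6a11, -0.57 for Abat, -1.32 for Aldh5a1, -2.18 for Maob, 1.37 for Gabbr1, -1.77 for Gabbr2 and -0.71 for Gabra2. The same test passed, as for 68.6% of all genes, for the following named genes of the pathway lists. Named genes were picked by their level or the size of a change, and further list genes also passed. The balance of signs below is therefore not that of the lists. The difference was positive for Slc6a6 (2.36), Gad2 (2.89), Glud1 (0.95), Gabrb2 (4.34), Gabre (4.17), Trak1 (0.23), Plcl2 (2.01), Clptm1 (0.73), Nlgn2 (1.19), Gnai2 (1.23), Gnai3 (1.32), Kcnj6 (8.83) and Slc12a7 (0.41). It was negative for Slc6a13 (-2.89), Slc32a1 (-3.44), Gad1 (-3.17), Gadl1 (-4.42), Sat2 (-1.61), Aoc1 (-4.48), Aldh1a1 (-4.15), Adhfe1 (-1.91), Gabra4 (-1.61), Gabra5 (-6.38), Gabrb1 (-5.60), Gabrg1 (-3.56), Gabrr1 (-7.11), Gabrr2 (-3.54), Gabarapl1 (-0.69), Plcl1 (-2.87), Shisa7 (-2.87), Lhfpl4 (-1.45), Kctd16 (-2.09), Gnao1 (-1.52), Kcnj3 (-2.25), Kcnj5 (-4.63), Kcnj9 (-3.67), Slc12a2 (-1.89), Slc12a5 (-1.27), Lrrc8a (-0.58) and Clcn2 (-1.004). Some of these sizes rest on counts near 0. All 4 libraries were at or under 3 counts for Kcnj6 in AdAC direct, Gabrr1 and Gadl1 in AdAC CellC, and Aoc1 in neoAC direct. The same held in 3 libraries for Slc32a1, Kcnj3 and Kcnj5 in AdAC CellC and for Kctd16 in neoAC direct.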

How the results depend on the processing

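The 7 members kept their direction in both culture comparisons and between direct cells under every alternative that tested them. They also kept their call there, with the following exceptions. Scaling by library size alone lost the call of Aldh5a1 in neonatal culture. The cut-off of an absolute log2 fold change over 1 lost Aldh5a1 (-0.44) and Maob (-0.87) in neonatal culture and Abat (0.958) between direct cells. Keeping only genes with 10 counts in every library left Maob untested. That filter lowered the number of list genes called, since fewer were tested, to 33 in adult culture (60 before), 33 in neonatal culture (54), 38 in AGES against AdAC CellC (69), 30 in AGES against neoAC CellC (61), 31 between the cultured groups (57), 33 between the direct groups (53) and 32 for the interaction (55).

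Values near 0 changed sign, and the cause was not tested. Slc6a11 in AGES against NSC was 0.0594 with DESeq2 size factors, 0.0518 without a filter, 0.0768 with 10 counts in every library, 0.0576 with the DESeq2 test and 0.0633 with the compared groups alone, and -0.25 to 0.13 when a library was left out. Aldh5a1 in AGES against AdAC CellC was 0.0367 with DESeq2 size factors, 0.116 without a filter, 0.0370 with the DESeq2 test and 0.0977 with the compared groups alone, and -0.12 to 0.12 when a library was left out. Gabbr1 in NSC against neoAC CellC was -0.15 with DESeq2 size factors, -0.23 by library size, -0.0388 without a filter, -0.264 with 10 counts in every library, -0.15 with DESeq2 and -0.13 with the compared groups alone. Gabbr1 in neoAC CellC against AdAC CellC was 0.00017 with 10 counts in every library, and Abat in AdAC direct against neoAC CellC was -0.12 by library size.

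Maob in neoAC CellC against AdAC CellC passed the test with DESeq2 size factors (0.46), by library size (0.43), without a filter (0.43), with DESeq2 (0.46) and with the compared groups alone (0.44), and without neoAC CellC replicate 1 (0.40) or 4 (0.44) or AdAC CellC replicate 2 (0.42). Gabra2 in AGES against neoAC CellC passed with DESeq2 (-0.41), by library size (-0.65), with 10 counts in every library (-0.51) and without AGES replicate 4 (-0.55). Scaling by library size alone moved the median of all genes to 0.27 in neonatal culture, -0.44 in AGES against AdAC CellC and -0.37 in AGES against neoAC CellC, and the calls to 8625 higher and 4468 lower (6766 and 6170 before) in neonatal culture and to 4506 and 9820 (6710 and 7977 before) in AGES against neoAC CellC.

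With the replicate number as a block, 5 members in place of 4 were called between AGES and NSC, Gabbr2 being added (-0.27, edgeR adjusted p = 0.0369), Gabbr1 in NSC against neoAC CellC was -0.0166, and the number of members called in the other comparisons was as before. Correlations of same-numbered libraries ran from -0.0953 to 0.106, and the best match carried the same number in 8 of 28 cases. Among the members, low counts limit Maob in NSC and AGES. Counts were also low in AdAC CellC for Gabbr2 (16 to 36 per library) and Gabra2 (35 to 42).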
